A study of Gallus gallus with 48 samples.

Results

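This report covers the chicks that wore a -15 diopter (D) lens for 3 days, 12 of 48 arrays and 6 of the 24 birds of the series. The members were taken from the sample titles, which give the duration and a number for each bird and mark the lens eye with e and the control eye with c. The 6 birds are called bird 1 to bird 6 in the order of their numbers. White Leghorn chicks had a spectacle lens put over 1 eye at 1 week of age. The lens-covered eyes of this condition were measured after 3 days, and the open fellow eye of the same bird, with no lens, was the control. Other birds wore a +15 D lens for 3 days, or a lens of either power for 6 hours, and each condition had 6 birds of its own. All birds had a 12-hour light period, and no source used here states at what hour the eyes were taken. The open eye is an internal control of a bird whose other eye was treated, and no bird without a lens was analysed here.

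A negative lens moves the plane of focus behind the retina, and young chicks respond with faster elongation of the eye and thinning of the choroid, until the image is again near the retina. A positive lens has the opposite effect on growth. The response persists when the optic nerve is cut, so the retina itself and the adjoining pigment epithelium are held to read the sign of defocus, and amacrine cells, dopamine, glucagon and bone morphogenetic proteins (BMPs) have been tied to it. The transcription factor EGR1, called ZENK in birds, is the best known activity marker of this response in amacrine cells.

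The retinal pigment epithelium (RPE) was taken along with the retina, so each array measured a mixture of cell types, in which fewer cells of a type and less RNA per cell cannot be told apart. The deposited values are log2 signals of the Affymetrix Chicken array, 1 per probe set, made with RMA, a method that gives all arrays the same distribution of probe intensities. The 12 arrays spanned 1.90 to 14.3 log2, with array medians between 6.39 and 6.51. Any 2 of them correlated at 0.986 to 0.996 over 38382 probe sets, and none were identical. The 95th percentile of the mean signals of 541 viral probe sets, 4.50 log2, serves as background. Markers of the labelled tissue were present: the visual cycle enzyme RPE65 of the RPE had a median of 12.10 in lens eyes and 12.14 in control eyes, the cone transducin GNAT2 of 12.37 and 12.26, and the glutamine synthetase GLUL of Müller glia of 13.74 and 13.75. No genome or sequence table was given here, so no sequences are shown.

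After 3 days behind a -15 D lens, the retina and RPE had lower signal for the MAP kinase phosphatase DUSP4, the receptor kinase adaptor SHC4 and the activity-dependent factor EGR1. Signal was also lower for 1 probe set each of the ubiquitin ligase gene RNF149 and the phosphatase subunit gene PPP2R2A. It was higher for the small GTPase gene RASL10A. These were single genes, and the lists they belong to had medians near 0 except that of the immediate early genes (-0.14). With limma on all 48 arrays and the bird as a block, 27 of 38382 probe sets passed an adjusted p of 0.05 (0.0703%), 7 of them higher (0.0182%) and 20 lower (0.0521%) in lens eyes. They named 20 genes, of which 3 rose and 17 fell, and 6 probe sets had no gene name. Mean differences were between 0.28 and 0.74 log2 in size. All 27 had the same sign in 6 of 6 birds, which 13.1% of all probe sets also had. In 13 of the 27 the lens and control eyes did not overlap, against 0.935% of all probe sets. The 27 were selected by a test within these birds, which itself favours the same sign and eyes that do not overlap. These shares are thus no independent support. A fit on the 12 arrays of this condition alone, with its own estimate of the spread, called 656 probe sets (1.71%), 105 higher (0.274%) and 551 lower (1.44%), among them all 27. By genes, 483 of 13009 had a probe set called in that fit, 403 lower and 80 higher. These 656 calls became 0 with the actin 3'/5' ratio as a covariate and 0 without bird 3, 4 or 5, which applies to every gene given below as called on the 12 arrays alone. The count of 27 fell to 2 with the 3'/5' signal ratio of beta-actin, a usual measure of RNA integrity, as a covariate, and to 0 without the bird as a block. The actin ratio was higher in the lens eye of 6 of 6 birds, so as a covariate it overlaps with the lens effect. That lowers the power of the fits, most of all on the 12 arrays alone. Whether RNA integrity accounts for the lost calls was not tested. Leaving out any 1 bird left 3 to 6 calls.

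DUSP4, a nuclear phosphatase that inactivates MAP kinases and is induced by their activity, fell. Its signal had a lowest, median and highest value of 8.17, 8.42 and 8.60 log2 in lens eyes and of 8.79, 9.01 and 9.28 in control eyes. The eyes did not overlap, and every bird was lower in the lens eye. The difference was -0.62 log2 (SD 0.16, n = 6 birds, a 1.53-fold lower signal, limma adjusted p = 0.0025). A second, dimmer DUSP4 probe set differed by -0.40 (limma adjusted p = 0.0673) with the same sign in 6 of 6 birds, and another lay below background. DUSP4 was 1 of 2 genes that still passed with the actin ratio as a covariate (-0.69, limma adjusted p = 0.0213). It was also 1 of 3 genes, with RNF149 and PPP2R2A, that passed whichever bird was left out. On the arrays of 3 days alone, a run chosen after seeing the data, DUSP4 did not pass (limma adjusted p = 0.0598).

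Other inhibitors that MAP kinase activity induces did not pass in the fit of all arrays. Of the 18 genes measured in this list, DUSP4 alone was called, and the median over the list was -0.01, with 9 genes above and 9 below 0. On the 12 arrays alone SPRED2, an inhibitor of Ras to Raf signalling, was called as well, at -0.40 log2 (SD 0.15, 6 of 6 birds). That fit called 403 of all 13009 genes lower. DUSP5, a phosphatase specific to ERK, differed by -0.30 (SD 0.15, limma adjusted p = 0.070) and SPRED1 by -0.16 (SD 0.09, limma adjusted p = 0.11), both lower in 6 of 6 lens eyes.

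EGR1 fell. Its signal was 8.90, 9.17 and 9.28 log2 (lowest, median, highest) in lens eyes and 9.60, 9.75 and 10.02 in control eyes, with no overlap. The difference was -0.66 log2 (SD 0.32, 1.58-fold lower, limma adjusted p = 0.0482), and it ranged over the birds from -1.10 to -0.36. The 3 birds with the largest falls were birds 1, 2 and 3. The brighter EGR1 probe set lay at 11.53, 11.77 and 11.92 in lens eyes and at 11.99, 12.10 and 12.35 in control eyes, also without overlap, with a difference of -0.37 (limma adjusted p = 0.092). EGR1 did not pass when any 1 bird was left out, with adjusted p values of at least 0.0974.

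Other transcripts induced by neuronal activity were mostly below 0 and none of them passed in the fit of all probe sets. The list of 19 immediate early genes measured includes EGR1, its only call, in the count, median and mean given here. Of the 19, 14 were lower in lens eyes, with a median of -0.14 log2, whereas 39.8% of all genes were below 0 by their brightest probe set and the median of all genes was 0.03. The mean of the list was below 0 in 6 of 6 birds, between -0.17 and -0.10. BDNF, a neurotrophin, differed by -0.25 (SD 0.14) and the CREB pathway kinase SIK1 by -0.22 (SD 0.11), both in 6 of 6 birds. ARC, a synaptic activity gene near background, differed by -0.47 with a spread that exceeded it (SD 0.54). The AP-1 subunit gene JUN differed the other way, by 0.19 (SD 0.11, 6 of 6 birds). Limma adjusted p values of these 4 genes over all probe sets were 0.17, 0.073, 0.14 and 0.094. SIK1 was called in the fit with 1 probe set per gene, given below.

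SHC4, an adaptor that couples receptor tyrosine kinases to Ras, fell. Lens eyes lay at 7.33, 7.57 and 7.73 log2 and control eyes at 7.92, 8.04 and 8.22, without overlap. The difference was -0.52 (SD 0.15, 1.44-fold lower, limma adjusted p = 0.0445). A dimmer SHC4 probe set differed by -0.43 in 6 of 6 birds (limma adjusted p = 0.0673), and another lay below background.

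RASL10A, a Ras-like small GTPase, was the only gene called by 2 probe sets and rose in both. The names of the 2 probe sets differ only in the suffix, and whether they share sequence was not checked. They are thus not taken as 2 independent readings. The brighter had 9.58, 9.76 and 10.09 log2 in lens eyes and 9.14, 9.40 and 9.60 in control eyes, which overlapped slightly. It was 0.43 higher (SD 0.15, limma adjusted p = 0.0445). The other had 8.94, 9.04 and 9.27 in lens eyes and 8.57, 8.68 and 8.91 in control eyes, without overlap, and was 0.38 higher (SD 0.08, limma adjusted p = 0.0445). Neither probe set passed when any 1 bird was left out, with limma adjusted p values of at least 0.088. Among the 32 measured adaptors, small GTPases and receptor kinases of the wider list, 1 rose, RASL10A, and 1 fell, SHC4. On the 12 arrays alone 3 were called higher and 3 lower: RASL10A, SHC4, the Ras exchange factors SOS1 and SOS2 and the kinases MAP2K1 and MAP2K2, which phosphorylate ERK. RASL10A, MAP2K2 (0.30) and SOS2 (0.31) were the higher ones, and SHC4, SOS1 (-0.27) and MAP2K1 (-0.35) the lower. SOS1, SOS2 and MAP2K1 were called by dimmer probe sets, and their brightest differed by -0.12, -0.04 and 0.05. Over all 13009 genes, 80 were called higher and 403 lower on the 12 arrays.

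**Figure D1:**
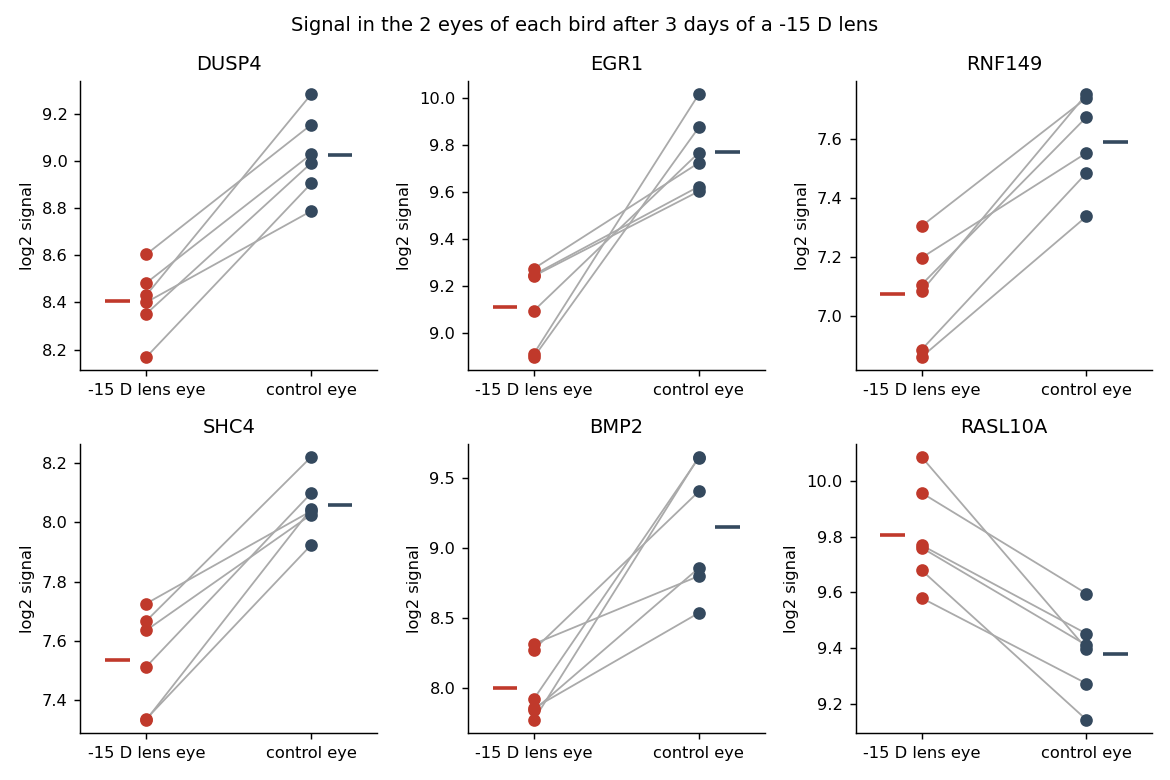
Log2 signal (vertical axis) of 6 probe sets in the -15 D lens eye (left, red) and the control eye (right, dark) of each bird after 3 days, with grey lines joining the eyes of a bird and short bars at the means. Each vertical axis has its own range. DUSP4, EGR1, RNF149, SHC4 and BMP2 were lower in all 6 lens eyes without overlap, and RASL10A (its brighter probe set) was higher in all 6.

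RNF149, a membrane-bound RING ubiquitin ligase that in human cells targets BRAF, had the lowest p of all probe sets. Lens eyes lay at 6.86, 7.10 and 7.31 log2 and control eyes at 7.34, 7.61 and 7.75, without overlap. It fell by 0.52 log2, with all birds between -0.67 and -0.36 (SD 0.12, 1.43-fold lower, limma adjusted p = 0.000757). It was the other gene that still passed with the actin ratio in the fit (-0.49, limma adjusted p = 0.0213). A brighter RNF149 probe set, at 11.45 in lens eyes and 11.58 in control eyes by the median, differed by only -0.12 (limma adjusted p = 0.271), so the 2 probe sets of this gene did not show the same size of difference.

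A pair of other ubiquitin ligase adaptors fell. KLHL5, a Kelch protein that brings substrates to cullin 3, had 5.00, 5.36 and 5.70 log2 in lens eyes and 5.33, 6.02 and 6.31 in control eyes (-0.60, SD 0.21, limma adjusted p = 0.0482). FBXO33, an F-box protein of cullin 1 ligases, had 4.37, 4.54 and 4.89 in lens eyes and 4.69, 5.08 and 5.48 in control eyes (-0.50, SD 0.23, limma adjusted p = 0.0445). The lens eyes of FBXO33 were near the background of 4.50 log2, and the eyes overlapped in both genes. Their brightest probe sets, above 11 log2, differed by -0.05 for KLHL5 and 0.02 for FBXO33. Of the 25 ubiquitin ligase genes measured, these 3 fell and 0 rose. In the same fit of all arrays, 17 of all 13009 genes were called lower and 3 higher. The median of the list was -0.0047, with 11 genes above 0 and 14 below. The list was put together with RNF149, KLHL5 and FBXO33 already known to have passed, so their number in it is not independent.

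PPP2R2A, the B55 alpha subunit that directs protein phosphatase 2A to its substrates, fell. Its called probe set had 4.65, 5.33 and 5.63 log2 in lens eyes and 5.55, 6.01 and 6.29 in control eyes, which overlapped only at 5.55 to 5.63. The difference was -0.74 (SD 0.28, 1.67-fold lower, limma adjusted p = 0.0025), the largest in size among the 27 probe sets called on all arrays. The brightest PPP2R2A probe set went the other way, at 10.20 in lens eyes and 10.05 in control eyes by the median, a difference of 0.14 in 5 of 6 birds (limma adjusted p = 0.107). A further 2 probe sets of the gene differed by -0.08 and -0.10. None of the other measured subunits of this phosphatase passed, among 14 genes with a median of -0.01.

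EIF4E, the protein that binds the 5' cap of messenger RNAs to start translation, fell by its middle probe set. Lens eyes had 5.05, 5.69 and 5.76 log2 and control eyes 5.83, 6.10 and 6.27, without overlap. The difference was -0.52, and bird 2 at -0.08 was nearest to 0 (SD 0.25, limma adjusted p = 0.0445). The brightest EIF4E probe set differed by -0.21 in 6 of 6 birds (limma adjusted p = 0.181). Of 20 genes of cap-dependent initiation no other passed. CLK4, a kinase of SR splicing factors, also fell by its dimmer probe set (-0.42, SD 0.15, limma adjusted p = 0.0445), from eyes that did not overlap (9.98, 10.11 and 10.41 in lens eyes, 10.49, 10.53 and 10.68 in control eyes). UTP6, which takes part in ribosomal RNA processing, differed by -0.45 in a dimmer probe set (SD 0.13, limma adjusted p = 0.0482), with 6.06, 6.67 and 6.84 in lens eyes and 6.50, 7.13 and 7.25 in control eyes. The brightest probe sets differed by -0.09 for CLK4 and -0.02 for UTP6 (limma adjusted p of 0.296 and 0.917).

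SYN2, the vesicle-tethering protein synapsin II, fell by the dimmest of its 4 probe sets. That probe set had 5.33, 5.89 and 6.12 log2 in lens eyes and 6.13, 6.56 and 6.67 in control eyes (-0.61, SD 0.17, limma adjusted p = 0.0482). The other 3 SYN2 probe sets differed by -0.42, -0.28 and -0.09, so the difference was smaller the brighter the probe set. Of 22 genes of vesicle release measured, SYN2 alone was called, and 11 lay above and 11 below 0. On the 12 arrays alone 4 more were called, all lower and all by a probe set that was not their brightest: SNAP25 (-0.44) and NAPB (-0.45) of the fusion machinery, the release site organizer RIMS2 (-0.29) and the vesicle protein SV2C (-0.40). Their brightest probe sets differed by 0.02, -0.03, -0.12 and 0.01 in the same order. Over all 13009 genes, 483 were called on the 12 arrays, 403 of them lower.

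The remaining called genes have housekeeping or less studied roles. PLA2G10L, annotated as similar to a secreted phospholipase A2, fell by 0.74 log2 (SD 0.21, 5.35, 5.55 and 5.88 in lens eyes, 5.78, 6.43 and 6.62 in control eyes). MOCS2, a subunit of molybdopterin synthase, fell by 0.35 (SD 0.12, 6.31, 6.60 and 6.69 in lens eyes, 6.74, 6.95 and 7.05 in control eyes). Both were called by a dimmer probe set. The brightest differed by -0.14 for PLA2G10L and by -0.0060 for MOCS2 (limma adjusted p of 0.355 and 0.969). GTPBP8, a GTP-binding protein, fell by 0.31 with little spread (SD 0.09), since control eyes lay between 6.96 and 7.02 and lens eyes between 6.53 and 6.80. SESTD1, a protein with lipid-binding and spectrin domains, fell by 0.30 (SD 0.12, medians of 9.22 in lens eyes and 9.60 in control eyes). Limma adjusted p was 0.0445 for the called probe sets of these 4 genes.

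At a limma adjusted p of 0.0482, SLC15A4, a lysosomal transporter of peptides and histidine, fell by 0.46 (SD 0.20, medians of 6.22 in lens eyes and 6.70 in control eyes). ZDHHC12, a palmitoyl transferase, fell by 0.52 (SD 0.16), but its lens eyes, at a median of 4.09 against 4.74 in control eyes, were below background, so the size of this fall is uncertain. The remaining rises were ENTPD7, an enzyme that splits nucleoside triphosphates, and GMPPA, a regulator of GDP-mannose synthesis. ENTPD7 had 7.19, 7.28 and 7.33 in lens eyes and 6.68, 6.96 and 7.03 in control eyes (0.34, SD 0.08). GMPPA had 8.94, 9.11 and 9.23 in lens eyes and 8.65, 8.79 and 8.87 in control eyes (0.32, SD 0.13). Neither rise showed overlap of the eyes.

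**Figure D2:**
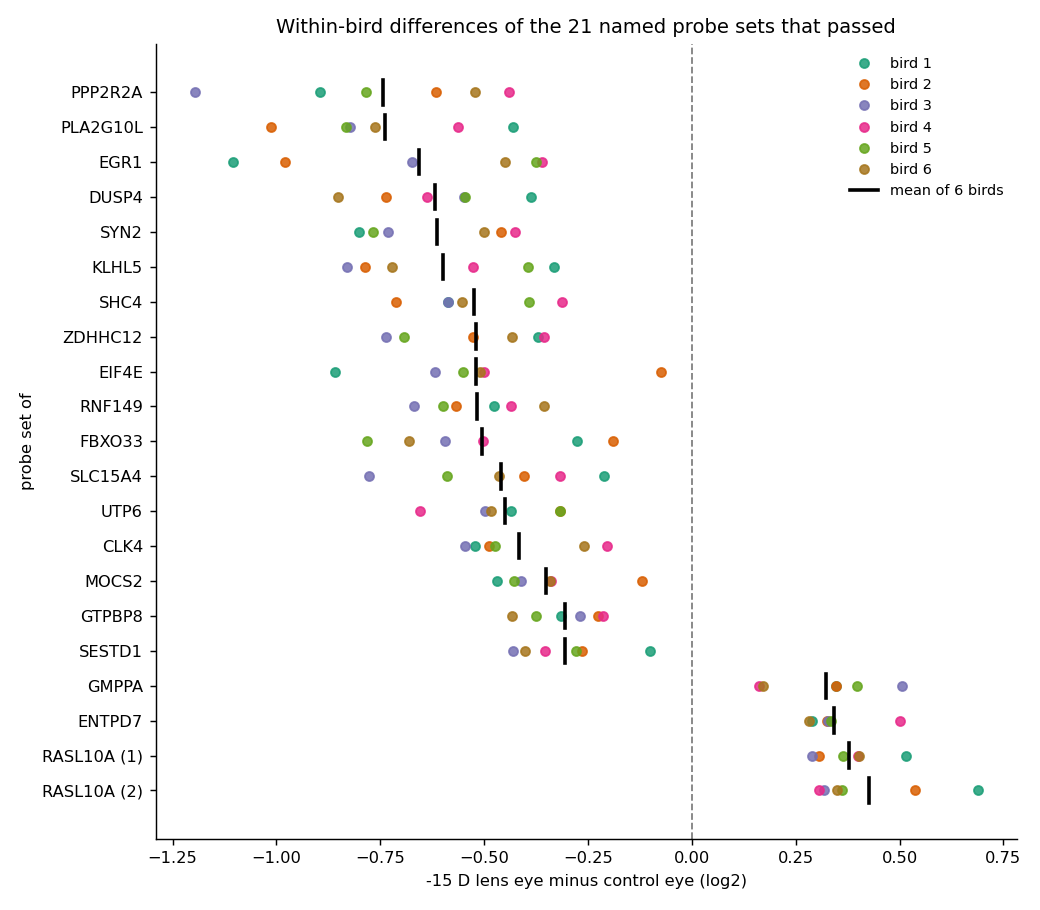
Within-bird difference (lens eye minus control eye, log2, horizontal axis) of the 21 named probe sets that passed, 1 line each, with 1 coloured dot for each of the 6 birds and a black bar at their mean. All dots of a line lie on the same side of 0, the bird nearest to 0 being bird 2 for EIF4E at -0.08.

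For 11 of the 20 named genes, the probe set that passed was not the gene's brightest, and the brightest did not pass. By probe sets, 12 of the 21 named calls were not their gene's brightest (57.1%), against 52.1% of all 27168 probe sets with 1 gene. The brightest had the same sign in 9 of the 11, but the median size was 0.0945 log2 against 0.519 for the called probe sets, and the brightest ranged from -0.37 for EGR1 to 0.14 for PPP2R2A. On the 12 arrays alone, 361 of the 526 called probe sets with 1 gene were not their gene's brightest (68.6%), of whose brightest probe sets 18 were called and 206 shared the direction. The brightest had a median size of 0.0615, and the called ones of 0.380. The called probe sets were selected for their difference and the brightest were not, so that selection alone makes the called ones larger, and nothing is read from the direction. These comparisons were chosen after the values were seen. Levels of different probe sets are not compared as amounts of RNA, and which transcripts or which parts of them the probe sets read was not tested.

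**Figure D3:**
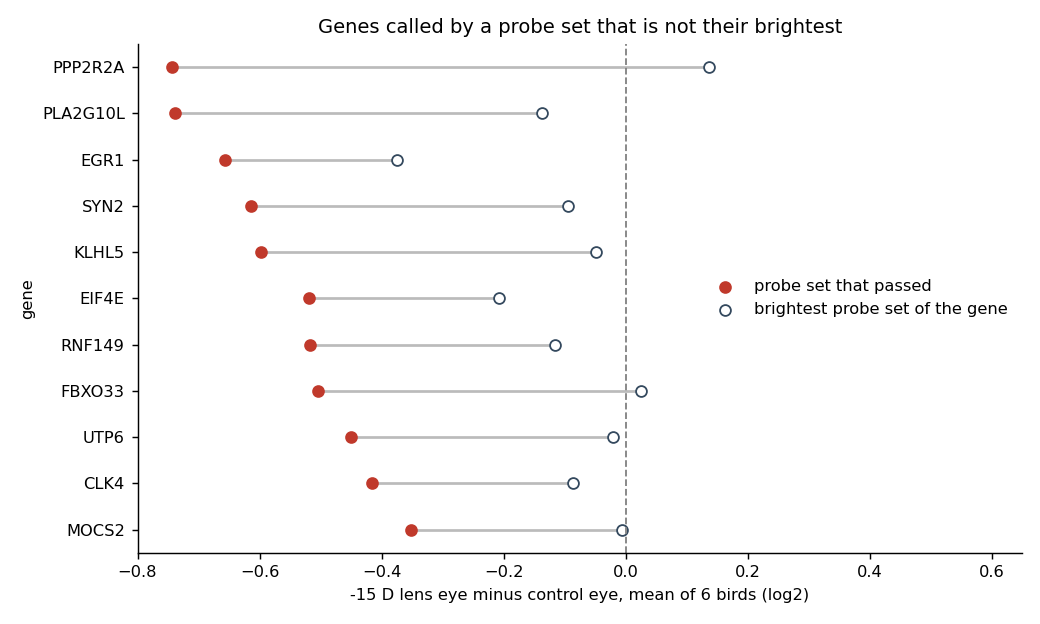
Mean difference of 6 birds (lens eye minus control eye, log2, horizontal axis) of the probe set that passed (red) and of the brightest probe set of the same gene (white), for the 11 genes in which these were different and the brightest did not pass. All red points lie at or below -0.35, and the white points lie between -0.37 and 0.14.

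With 1 probe set per gene, the brightest over all arrays, the same model called 85 of 13009 genes (0.653%), 51 higher and 34 lower in lens eyes. Of all 13009 genes, 39.8% were below 0 by these probe sets. The split of the calls was near that share, so nothing is read from it. The rises were small, with a median of 0.25 log2 and a highest value of 0.43, and the falls had a median of 0.38 and reached 1.15. Of the 85, 84 had the same sign in 6 of 6 birds and in 35 the eyes did not overlap. Over all 38382 probe sets these shares were 13.1% and 0.935%, and over the 13009 genes they were not counted. The 85 were selected by a test within birds, which itself favours the same sign. The genes named from this fit were chosen after their values were seen. BMP2, SPRED2, DUSP5, SIK1 and the clock gene NPAS2 were called lower in it, besides DUSP4 and SHC4. GABRR3, a subunit of rho-type GABA receptors, was lower at -0.70 log2, with 7.14 to 7.86 in lens eyes and 7.52 to 8.68 in control eyes. MYO5A, a motor of vesicles and pigment granules, was lower at -0.69. EGLN3, an oxygen sensor of the hypoxia response, was lower at -0.54 and the cadherin CDH7 at -0.50, with lens eyes near background (medians of 4.49 and 4.97, against 5.04 and 5.36 in control eyes). Among those called higher were the cell cycle inhibitor CDKN1A (0.30), the growth-arrest factor KLF10 (0.33), the secreted signal WNT5A (0.29), its receptor family member FZD9 (0.27), the chaperone HSP90AB1 (0.25) and the histone methyltransferase EZH1 (0.33). Limma adjusted p over 13009 genes was between 0.0396 and 0.0496 for these 15 genes, and the fit of all probe sets called none of them. With the actin ratio as a covariate 1 gene was called, and the median size of the 85 was 0.23 against 0.28. All 85 kept their sign and an unadjusted limma p under 0.05. They had been selected for a low p on the same arrays, which makes this likely.

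BMP2, a growth regulator that the RPE of chicks makes less of under negative lenses in published work, had the largest fall among named probe sets called on the 12 arrays alone. Lens eyes lay at 7.78, 7.89 and 8.32 log2 and control eyes at 8.54, 9.13 and 9.65, without overlap. The difference was -1.15 (SD 0.55, 2.22-fold lower), with an adjusted p of 0.0260 from limma on the 12 arrays and of 0.0655 on all arrays. NOG, the secreted BMP antagonist noggin, was higher by 0.47 (SD 0.23, 6 of 6 birds), at 7.57, 7.95 and 8.23 in lens eyes and 7.32, 7.46 and 7.64 in control eyes, with adjusted p values of 0.0368 on the 12 arrays and 0.108 on all arrays. None of the other 25 measured genes of BMP and TGF-beta signalling was called by either fit, and 0 of 27 passed on all arrays. On the 12 arrays, 483 of all 13009 genes were called, 403 lower and 80 higher. The BMP and TGF-beta list had 14 genes above and 13 below 0. Values for other ligands were -0.44 for BMP7 (SD 0.47), -0.23 for BMP4 (SD 0.34) and -0.08 for TGFB2 (SD 0.27), and for the activin and BMP antagonist FST -0.28 (SD 0.18, 6 of 6 birds).

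The following genes had the largest differences among those called on the 12 arrays alone with the same sign in 6 birds and signal above background in both eyes. Lower were SERPINE3, a serine protease inhibitor family member (-1.05, SD 0.62), and SLC17A8, the vesicular glutamate transporter VGLUT3 of a class of amacrine cells (-0.90, SD 0.41). SLC17A8 had 3.91, 4.60 and 4.77 log2 in lens eyes and 4.92, 5.36 and 5.90 in control eyes, without overlap but near background in lens eyes. NDNF, a secreted neurotrophic factor, differed by -0.89 (SD 0.41), with 6.73, 7.09 and 7.81 in lens eyes and 7.87, 8.08 and 8.39 in control eyes. CDS2 of phosphoinositide synthesis (-0.85, SD 0.49), FAM84B (-0.75, SD 0.35), the microtubule protein DCX (-0.70, SD 0.40) and the SUMO-directed ubiquitin ligase RNF4 (-0.70, SD 0.23) completed the falls, with PPP2R2A and PLA2G10L from above. With the actin ratio as a covariate the differences of NDNF, CDS2, FAM84B and RNF4 were -0.32, -0.30, -0.36 and -0.36, while those of BMP2 and SERPINE3 were -1.14 and -1.22.

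Among the largest rises on the 12 arrays alone were the keratin KRT24 (0.51, SD 0.25), the secreted ribonuclease RNASE6 (0.48, SD 0.27), C3AR1L, annotated as similar to a complement receptor (0.45, SD 0.26), and the microtubule regulator STMN4 (0.43, SD 0.16). KRT24 and RNASE6 varied more between birds than between the eyes of a bird, with 4.56 to 6.40 for KRT24 in lens eyes and 4.26 to 6.08 in control eyes. VPS41, a tether of lysosome fusion (0.40, SD 0.20), the nuclear pore protein NUP98 (0.38, SD 0.08) and the ciliary transport protein WDR35 (0.37, SD 0.13) followed. Of these 7, NUP98 alone had eyes that did not overlap, at 6.88, 6.96 and 7.21 in lens eyes and 6.53, 6.63 and 6.81 in control eyes. Of these largest falls and rises, PPP2R2A, PLA2G10L and RASL10A passed in the fit of all arrays, and the limma adjusted p values of the other genes there were between 0.0655 and 0.835.

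Peptides of amacrine cells did not pass in the fit of all arrays (0 of 16 genes, median -0.03 log2, 7 above and 9 below 0). UTS2B, a peptide of the urotensin family, was called on the 12 arrays alone, at -0.53 (SD 0.22, 6 of 6 birds). It lay at 7.30 to 7.89 in lens eyes and 7.69 to 8.33 in control eyes. The fit on the 12 arrays called 403 of all 13009 genes lower. GCG, the glucagon precursor, which is tied to slower eye growth in chicks, differed by -0.40 (SD 0.29, lower in 5 of 6 lens eyes, limma adjusted p = 0.108). VIP differed by -0.08 (SD 0.07) and the enkephalin precursor PENK by 0.05 (SD 0.05). Enzymes, receptors and transporters of dopamine and other transmitters gave 0 calls among 16 genes by either fit, with -0.02 for the dopamine-synthesizing TH (SD 0.19).

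Clock and melatonin genes gave 0 calls of 24 on all arrays and 5 on the 12 arrays alone, all lower: the clock activator NPAS2, the repressors CRY1, CRY2 and PER3, and the melanopsin OPN4-1. Most calls on the 12 arrays were lower in any case, 403 of the 483 genes called among 13009. NPAS2 was called by its brightest probe set (-0.41, SD 0.11), with 6.38, 6.66 and 6.88 log2 in lens eyes and 6.93, 7.02 and 7.21 in control eyes, without overlap. The other 4 were called by dimmer probe sets, at -0.40 for CRY1, -0.54 for CRY2, -0.30 for PER3 and -0.51 for OPN4-1, where their brightest differed by -0.0014, -0.03, -0.18 and -0.22. In the list 16 of 24 genes were below 0, with a median of -0.03. Its mean was below 0 in 6 of 6 birds, from -0.10 to -0.0024.

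Chaperones of the heat shock response gave 0 calls of 22 on either fit, though 19 were above 0, with a median of 0.10 log2 and a list mean above 0 in 6 of 6 birds, from 0.05 to 0.14. Over all genes, 39.8% were below 0 by their brightest probe set, and the median was 0.03. HSP90AB1 differed by 0.25 (SD 0.11, limma adjusted p = 0.067), BAG3 by 0.19 (SD 0.11) and the endoplasmic reticulum chaperone HSPA5 by 0.12 (SD 0.08). HSP90AB1 was called in the fit with 1 probe set per gene. Rod genes gave 0 calls of 15 on all arrays and 1 on the 12 arrays alone, the guanylate cyclase activator GUCA1B (lower). Of all 13009 genes, 403 were called lower on the 12 arrays. Cone genes gave 0 of 13 by either fit. Retinoic acid genes gave 0 of 15 by either fit, with CYP26A1, which breaks retinoic acid down, at 0.30 (SD 0.23). The 12 stress and injury genes gave 0 calls.

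The effect was then set against that of the lens of opposite power over the same time. For the contrast of the lens effect between -15 D and +15 D at 3 days, limma called 0 of 38382 probe sets (0%), with a lowest adjusted p of 0.382 and 3556 probe sets at an unadjusted p under 0.05. DUSP4 fell after both lenses, by 0.62 behind -15 D and by 0.79 behind +15 D (limma adjusted p = 0.000102 for +15 D), a difference between powers of 0.17 (SE 0.12). It was the only probe set called in both conditions, of 27 behind -15 D and 2 behind +15 D among 38382 tested. EGR1 differed by -0.66 behind -15 D and by -0.69 behind +15 D (adjusted p = 0.110 from limma for +15 D), a difference of 0.03 (SE 0.18). SHC4 differed by -0.52 and -0.32. For the other named probe sets the effect behind +15 D lay between -0.12 for RNF149 and 0.21 for KLHL5. BMP2 was at -1.15 behind -15 D and at -0.02 behind +15 D (adjusted p of the difference 0.411 from limma). These differences did not pass, which does not show that the lenses acted alike.

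The same lens over 6 hours was the other comparison. Limma called 4 of 38382 probe sets for 3 days minus 6 hours of -15 D (0.0104%), with 3898 at an unadjusted p under 0.05. RNF149 differed by -0.52 after 3 days and by 0.10 after 6 hours, a difference of -0.62 (SE 0.09, limma adjusted p = 0.0121). EPHB6, an ephrin receptor that lacks kinase activity, differed by 0.25 after 3 days and by -0.50 after 6 hours, a difference of 0.75 (SE 0.12, limma adjusted p = 0.0261), with signals near background at 3 days (medians of 4.99 in lens eyes and 4.73 in control eyes). The other 2 have no gene name. None of the 27 probe sets called at 3 days was among the 15 of 38382 called at 6 hours. With so few calls at either time, the lack of shared ones does not show that the responses differed. At 6 hours DUSP4 was at -0.43, EGR1 at -0.25, SHC4 at -0.32 and BMP2 at -0.86, and none of these passed for the difference between times (limma adjusted p of at least 0.449 for DUSP4, EGR1 and SHC4). The 4 calls became 0 with the actin ratio as a covariate, without the bird as a block, and without bird 2, 3 or 5.

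**Figure D4:**
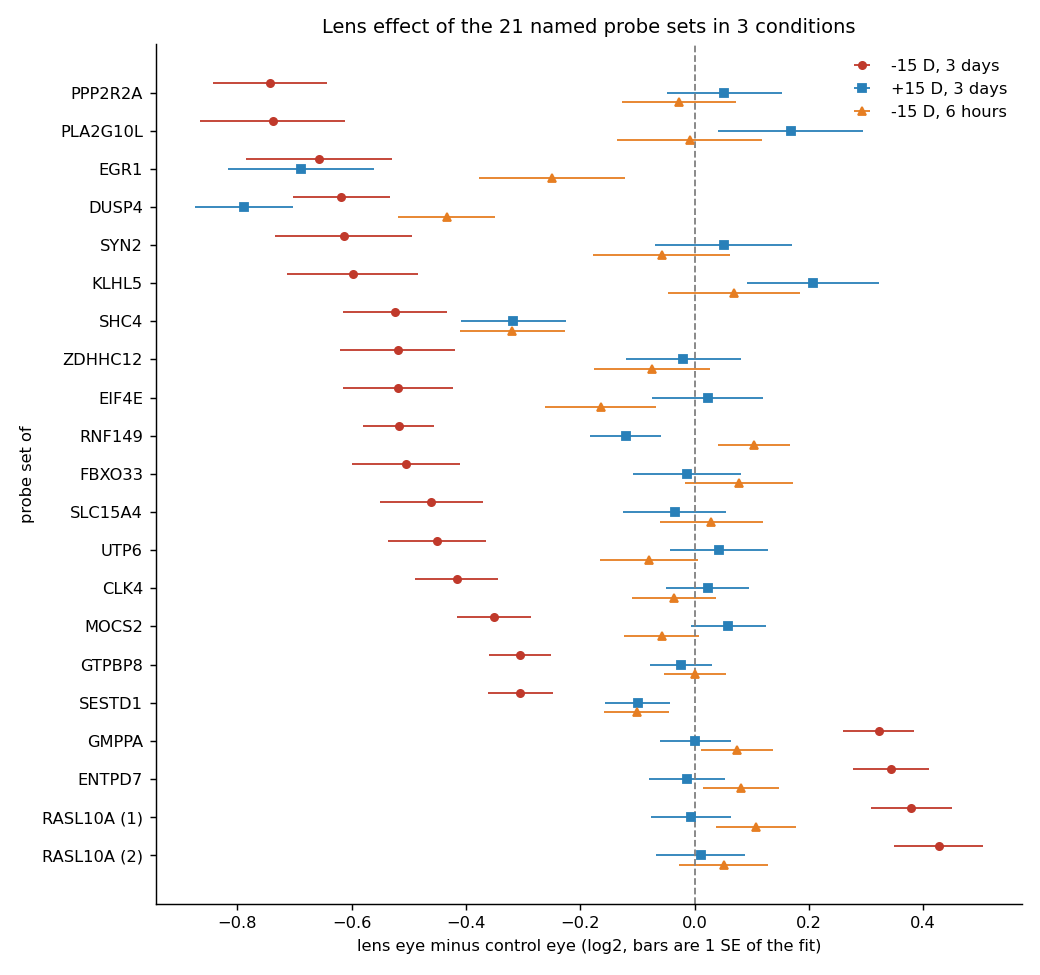
Lens effect (lens eye minus control eye, log2, horizontal axis, bars are 1 SE of the limma fit) of the 21 named probe sets after 3 days of -15 D (red circles), 3 days of +15 D (blue squares) and 6 hours of -15 D (orange triangles), 6 birds each. DUSP4, EGR1 and SHC4 lie below 0 in all 3 conditions, and for the other probe sets the +15 D values lie between -0.12 and 0.21.

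The 3'/5' ratios used to judge RNA integrity differed between the eyes in the same direction in every bird. The Affymetrix control probe sets read the 3' and 5' ends of 3 abundant transcripts, and a higher 3'/5' ratio is a usual sign of shorter RNA or cDNA. For beta-actin the log2 ratio lay between 3.36 and 4.03 in lens eyes and between 2.99 and 3.85 in control eyes, and was higher in the lens eye by 0.18 to 0.51 (mean 0.32, SD 0.14, n = 6). For GAPDH it was higher by 0.0982 (SD 0.075) and for the elongation factor EF1A by 0.39 (SD 0.14). All 3 ratios were higher in 6 of 6 lens eyes (exact sign-flip permutation test, two-sided, p = 0.03125, the smallest that 6 birds allow, adjusted p = 0.0375 over 12 tests). Against the middle probe set in place of the 5' one, the actin and GAPDH differences were 0.127 and 0.0671, in 5 of 6 birds each (exact permutation p = 0.09375). The EF1A difference, in a run not planned beforehand, was 0.196, in 6 of 6 birds (exact permutation p = 0.03125).

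A measure over many genes moved in the same birds. For 6103 genes with more than 1 probe set above background, the difference of the dimmest probe set was set against that of the brightest. The median was -0.0548 (SD 0.021), below 0 in 6 of 6 birds, from -0.084 to -0.023 (exact permutation p = 0.03125, adjusted p = 0.0375). This measure was chosen after the values were seen, and whether it reads RNA integrity was not tested. Behind +15 D at 3 days each measure had birds on both sides of 0, and behind -15 D at 6 hours the actin ratio was lower in 6 of 6 lens eyes. The actin difference was between -0.57 and 0.32 behind +15 D at 3 days (exact permutation p = 0.0584 for the difference from -15 D, adjusted p = 0.0638) and between -0.53 and -0.01 behind -15 D at 6 hours (exact permutation p = 0.00216, adjusted p = 0.0130). The EF1A difference was larger behind -15 D at 3 days than behind either (exact permutation p = 0.00433, adjusted p = 0.0130 each). The GAPDH difference, 0.0982 on average behind -15 D at 3 days, was -0.0819 behind +15 D (exact permutation p = 0.0108, adjusted p = 0.0260) and 0.0207 behind -15 D at 6 hours (exact permutation p = 0.102, adjusted p = 0.102). The contrasts of actin with +15 D and of GAPDH with 6 hours thus did not pass, and the other ratio contrasts did.

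**Figure D5:**
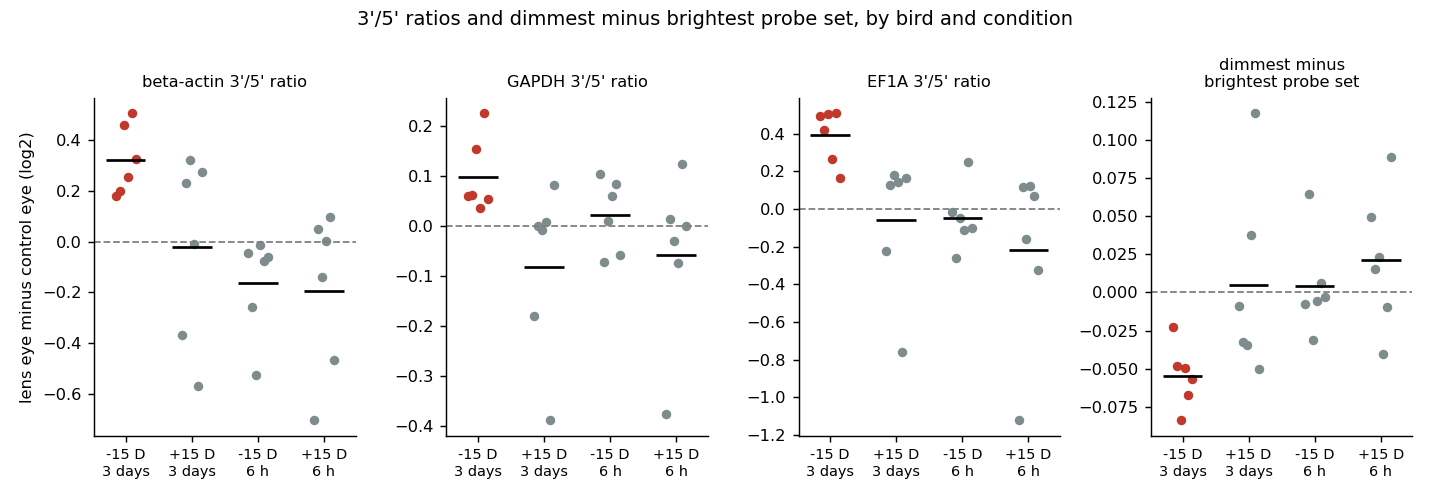
Difference between the eyes of each bird (lens eye minus control eye, log2, vertical axis) in the 3'/5' ratios of beta-actin, GAPDH and EF1A and in the median of the dimmest minus the brightest probe set of a gene, by condition, with 6 birds each and black lines at the means. The birds with a -15 D lens for 3 days (red) lie above 0 in all 3 ratios and below 0 in the last panel, and each other condition (grey) has birds on both sides of 0 in at least 3 of the 4 panels.

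With the actin ratio as a covariate, 2 of the 27 probe sets passed, and the median size of the 27 was 0.38 log2 against 0.52 without it. Each kept its sign and stayed under an unadjusted limma p of 0.05. The 27 had been selected for a low p on the same arrays, which makes this likely. With the EF1A ratio, added after the values were seen, the median size was 0.41 and 2 passed. DUSP4, EGR1, EIF4E, SHC4 and ENTPD7 were at least as large with the actin ratio (-0.69, -0.73, -0.62, -0.53 and 0.38). All the other named probe sets among the 27 were smaller with it, for instance SLC15A4 (-0.29), CLK4 (-0.30) and PLA2G10L (-0.54). Whether RNA integrity accounts for the differences between the eyes was not tested beyond these fits.

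Marker lists of other eye tissues differed between the eyes, most of all in some of the birds. For comparison, 39.8% of all genes were below 0 by their brightest probe set, with a median of 0.03. Vessel and muscle markers were above 0 for 26 of 28 genes, with a median of 0.64 log2, and their mean level lay between 7.17 and 9.43 in lens eyes and between 7.07 and 7.84 in control eyes. Birds 6 and 5 were at 2.34 and 1.59, and the others between -0.09 and 0.33. The fast muscle myosin light chain MYL1 was below background in all 6 control eyes and reached 9.75 in a lens eye. Choroid and sclera markers were above 0 for 14 of 19 genes, with list means above 0 in 5 of 6 birds (from -0.25 to 1.14). Matrix genes were above 0 for 27 of 29, with a median of 0.24 and list means above 0 in 5 of 6 birds (from -0.34 to 1.09). Lens markers were below 0 for 16 of 20 genes, with bird 4 at -3.65 and the others between -0.26 and 0.20, and the lens crystallin CRYAA reached 11.3 in 1 control eye while all lens eyes were below background. Blood and immune markers were above 0 for 18 of 23 genes, with list means above 0 in 5 of 6 birds (from -0.11 to 0.46).

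None of these 5 lists had a member that passed in the fit of all arrays, and on the 12 arrays alone the vessel receptor KDR and the laminin LAMA1 were called lower by dimmer probe sets (-0.45 and -0.35), where their brightest differed by 0.11 and 0.18. RPE and pigment genes had birds from -0.49 to 0.22, with 6 of 18 genes above 0, and 2 called lower on the 12 arrays alone by dimmer probe sets, OCA2 (-0.41) and TRPM1 (-0.43), whose brightest differed by -0.09 and 0.0029. TRPM1 is also in the list of retinal neuron markers, as the only 1 of 17 genes called on the 12 arrays. That list had 0 calls on all arrays and a median of -0.01. Over all 13009 genes, 403 were called lower on the 12 arrays. Müller glia gave 0 calls of 15. Without birds 4, 5 and 6, an alternative chosen after the values were seen, 0 probe sets passed with 3 birds left, and the difference was -0.56 for DUSP4, -0.57 for RNF149, -0.92 for EGR1, -0.63 for SHC4, -0.90 for PPP2R2A and 0.51 for the brighter RASL10A probe set. Bird 2, which was kept, had the highest list means of the matrix genes (1.09) and of the blood and immune markers (0.46). This run thus does not set birds with other tissue apart from birds without it. The part of other tissues in the calls was not tested.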

How the data were processed

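The authors deposited a table of log2 signal, with a row for each probe set and a column for each array. Per the submitters' processing notes it was made with RMA and Partek, whose versions and options were not given in the sources used here. Retina and RPE RNA of 24 birds was measured on 48 arrays. No value was transformed. Of 38535 probe sets, 153 controls and reporters were left out. A probe annotation gave 1 gene to 27168 of the 38382 tested, several to 177 and none to 11037; genes are named only where there was 1.

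Lens and control eyes were compared with limma 3.58.1 in R 4.3.3, with the bird as a block, on all 48 arrays (20 residual degrees of freedom), and on the 12 arrays alone (5). The eyes of a number come from the same bird, and their deviations from the group means correlated at 0.376 to 0.661 in 6 of 6 pairs. Over all 24 birds, 20 pairs correlated above 0.1. The SD of the within-bird differences over probe sets was 0.233 to 0.295 in these 6 birds and 0.192 to 0.610 in the others. The fit of all arrays uses 1 estimate of spread for all of them. P-values were adjusted by Benjamini-Hochberg over all probe sets tested, with a threshold of 0.05. The number of birds limits the precision. Integrity ratios were tested by exact sign-flip and permutation tests. The fits were tested on simulated data with effects larger than those of the probe sets called on all arrays, and with independent noise. That test does not cover effects of the sizes called there, or differences between the eyes shared by many probe sets.

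Named are the genes of called probe sets, the 10 largest rises and 10 largest falls of the 12-array fit that had 6 birds of the same sign and both eyes above background, members of the gene lists, and genes called in the contrasts between conditions; other genes are said to be chosen after their values were seen. Members and lists were chosen with earlier results of these data known.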

Additional observations from a re-analysis of the deposited data

Results flagged for a closer look

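In 5 of 65 sets of 6 birds, 1 bird stood apart from the others by Dixon's test, which chance does in about 1 of 20 sets. Bird 4 was the highest for ENTPD7, at 0.50 log2. Bird 2 was the nearest to 0 for MOCS2, at -0.12. Bird 5 was the highest for NUP98, at 0.54. The mean of the BMP and TGF-beta genes was -0.21 in bird 5, and the mean of the lens markers was -3.65 in bird 4.

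The lens effect of -15 D differed between 3 days and 6 hours by 0.75 log2 for EPHB6, by -0.62 for RNF149, and by 0.67 and 0.54 for 2 probe sets with no gene name, by the limma contrast. The 3'/5' ratios, and the measure of dimmest against brightest probe sets, which was chosen after the values were seen, also differed between conditions in 6 of 8 exact permutation tests over birds. Against +15 D at 3 days, the difference between the eyes was higher by 0.18 for the GAPDH ratio and by 0.45 for the EF1A ratio, and differed by -0.0598 for the dimmest minus the brightest probe set. Against -15 D at 6 hours, it was higher by 0.48 for the actin ratio and by 0.44 for the EF1A ratio, and differed by -0.0588 for the dimmest minus the brightest probe set.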

How the results depend on the processing

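None of the 21 named probe sets that passed on all arrays changed sign under any alternative run. They had been selected for their difference on the same arrays, which makes this likely. Genes named on other grounds were not followed through all of these runs. The count of 27 was 0 without the replicate block (1965 at an unadjusted p under 0.05), 2284 with array weights, 3 with arrays centred to one median (0 higher, 3 lower), 2 with the actin ratio, 114 over probe sets above background, 85 with the brightest probe set of each gene, 656 on the 12 arrays alone and 3 to 6 without 1 bird. Chosen after seeing the data were the EF1A ratio (2), the arrays of 3 days alone (2) and leaving out birds 4, 5 and 6 (0, with 3554 at an unadjusted p under 0.05). The 2 calls with the EF1A ratio were DUSP4 and RNF149. On the arrays of 3 days alone the 2 calls were RNF149 and PLA2G10L, and DUSP4 and PPP2R2A did not pass. For -15 D against +15 D the count of 0 was 1 with array weights and 0 otherwise. For 3 days against 6 hours the count of 4 was 387 with array weights, 1 on the arrays of both conditions, 0 to 3 without 1 bird, and 0 without the replicate block, with either ratio, with the brightest probe sets and without birds 4, 5 and 6. The 656 calls of the 12 arrays became 0 with the actin ratio or without the replicate block, and 0 to 461 without 1 bird: 0 without bird 3, 4 or 5, 110 without bird 2, 173 without bird 6 and 461 without bird 1. Array weights there, also added, gave 859. With the middle probe set the actin difference was 0.127 and the GAPDH difference 0.0671 (exact permutation p = 0.09375 each). The EF1A difference with it, also added, was 0.196 (exact permutation p = 0.03125). Without 1 bird, the differences were 0.284 to 0.349 for actin, 0.0729 to 0.111 for GAPDH, 0.369 to 0.438 for EF1A and -0.0613 to -0.0490 for the dimmest minus the brightest probe set. The cause of these changes was not tested. Signals near 4.50 log2 limit the size of low differences.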

Other observations

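Over all 24 birds, the difference between the eyes in the actin ratio and in the dimmest minus the brightest probe set of a gene went together (Pearson r = -0.78, permutation p = 2e-05; Spearman rho = -0.84, permutation p = 1e-05, the smallest the resampling can give; adjusted p = 0.0001 for r over 5 relations). Without the 2 birds farthest from the median actin difference r was -0.72. Within the birds that wore -15 D for 3 days r was -0.86 and rho -0.94 (exact permutation p = 0.0194, adjusted p = 0.0486, for r, n = 6). Within the other conditions r was -0.82 for +15 D at 3 days, 0.11 for -15 D at 6 hours and -0.76 for +15 D at 6 hours, and none of these 3 values of r passed the adjusted threshold (exact permutation p of 0.0861, 0.919 and 0.0944, adjusted p of 0.118, 0.919 and 0.118). Spearman's rho was -0.89 for +15 D at 3 days (exact permutation p = 0.0333, not adjusted), -0.0857 for -15 D at 6 hours and -0.77 for +15 D at 6 hours. Without the 2 birds farthest from the median, r was -0.78 for -15 D at 3 days, -0.95 for +15 D at 3 days, -0.73 for -15 D at 6 hours, where it turned its direction, and -0.41 for +15 D at 6 hours, with 4 birds left in each. Both measures come from the same arrays.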
